A study of Mus musculus with 6 samples.

Results

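The genes described are 7 scavenger receptor genes of microglia, namely Msr1, Colec12, Cd36, Scarb1, Stab1, Lrp1 and Cd68. They were taken by name from a table of 55487 genes, each name matched 1 row, and all 7 passed the filter on low counts. Microglia, the resident macrophages of the brain, came from the cortex of 6 female mice, each 20 months old, and had been sorted by flow cytometry for live cells positive for CD11b with an intermediate level of CD45. The 3 control mice were Atg7-fl/fl, with floxed alleles of the autophagy gene Atg7 and no Cre. The 3 knockout mice were Atg7-fl/fl;Cx3cr1-CreERT2, so they carried the same floxed alleles and an inducible Cre recombinase expressed from the Cx3cr1 locus. The groups therefore differed in the Cre allele as well as in Atg7, and the labels state neither the agents given nor when Atg7 was deleted. Cx3cr1 is expressed in other macrophages and in monocytes as well as in microglia, which limits the Cre line as a model of microglia alone.

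Scavenger receptors are unrelated surface and endosomal proteins that share the ability to bind polyanionic or lipid-bearing ligands, such as modified lipoproteins, apoptotic cells, bacterial products and amyloid-beta. They are sorted by structure into lettered classes. Msr1 and Colec12 belong to the collagen-like class A, Cd36 and Scarb1 to class B, whose loop is anchored in the membrane at both ends, Cd68 to class D, Stab1 to class H, and Lrp1 to class L. In microglia they are known for the uptake of lipoproteins, myelin debris and amyloid-beta, which is delivered to endosomes and lysosomes.

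CPM values (counts per 1000000 reads) were scaled between libraries by TMM, and values are listed as controls 1, 2 and 3 and then knockouts 1, 2 and 3. Control 3 and knockout 2 were shallow, with 1254380 and 3789208 reads against 21282335 to 39389527 reads in the other 4 libraries. A floor of 3 reads stood for 2.36 CPM in control 3, 0.779 CPM in knockout 2 and 0.0789 to 0.139 CPM elsewhere. The targeted gene Atg7 averaged 62.9 CPM ± 5.46 (SD, n = 3) in control mice and 25.1 CPM ± 1.39 in knockout mice, whose libraries all lay below the controls. Cx3cr1, the locus that carries the Cre, had 10620 CPM ± 907 and 4710 CPM ± 791. The 10 microglia markers, among them P2ry12, Tmem119 and Sall1, were all detected and summed to 56531, 54319 and 50674 CPM in control mice and 50675, 45570.2 and 47003 CPM in knockout mice.

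The 7 genes spanned a wide range of abundance. The proximal promoters of 4 of them that have an entry in the RefSeq promoter table are shown first. Of these, Cd68, Stab1 and Lrp1 were the most abundant, and Cd36 was low and varied most between knockout libraries. Each is the 250 bases before the listed start on the minus strand of GRCm38.p6, printed 5′ to 3′, and this build is not the one that the submitters' processing notes name. Capitals mark matches, on either strand, to 3 letter patterns: the PU.1 core GAGGAA, AP-1 as TGANTCA, and the antioxidant response element core TGACNNNGC.
Cd68, chr11:69666171-69666420: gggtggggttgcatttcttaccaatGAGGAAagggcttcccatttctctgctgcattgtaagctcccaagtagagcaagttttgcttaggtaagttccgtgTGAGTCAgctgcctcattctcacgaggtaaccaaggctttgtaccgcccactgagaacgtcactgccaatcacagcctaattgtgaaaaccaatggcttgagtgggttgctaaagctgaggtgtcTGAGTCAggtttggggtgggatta
Stab1, chr14:31168642-31168891: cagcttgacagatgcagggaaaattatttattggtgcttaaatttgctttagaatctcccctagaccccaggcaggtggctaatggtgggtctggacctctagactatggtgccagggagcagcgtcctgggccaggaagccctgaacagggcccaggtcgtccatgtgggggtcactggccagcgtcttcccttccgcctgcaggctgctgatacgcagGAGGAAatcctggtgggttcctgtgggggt
Lrp1, chr10:127621149-127621398: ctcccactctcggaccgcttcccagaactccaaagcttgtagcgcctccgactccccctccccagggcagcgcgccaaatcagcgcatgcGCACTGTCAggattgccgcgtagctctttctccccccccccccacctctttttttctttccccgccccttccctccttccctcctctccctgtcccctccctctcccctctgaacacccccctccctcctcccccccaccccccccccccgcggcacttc
Cd36, chr5:17835897-17836146: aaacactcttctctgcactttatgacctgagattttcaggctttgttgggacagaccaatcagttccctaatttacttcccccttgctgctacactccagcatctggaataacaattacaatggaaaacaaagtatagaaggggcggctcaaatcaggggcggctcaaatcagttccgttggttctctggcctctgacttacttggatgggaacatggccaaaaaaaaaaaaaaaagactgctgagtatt

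The Cd68 window held the PU.1 core, beginning 225 bases before the start, and 2 AP-1 matches beginning 149 and 24 bases before it. The Stab1 window held the PU.1 core 30 bases before its start, and the Lrp1 window held the antioxidant response element core 160 bases before its start, on the opposite strand. The 3 patterns were not found in these letters of the Cd36 window. Of 32851 promoter windows of the same length, 23.3% held the PU.1 core, 6.75% AP-1 and 10.2% the antioxidant response element core, so such matches are common and are given as a description. The G and C content was 67.2% for Lrp1, 57.2% for Stab1, 49.2% for Cd68 and 43.2% for Cd36.

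Levels were compared between the genes as CPM per kb of exon, with exon lengths from GENCODE M21. Cd68, a heavily glycosylated endosomal and lysosomal membrane protein, was the most abundant at 1635 CPM per kb ± 216 (SD, n = 6 libraries). Stab1, a large endocytic receptor for acetylated lipoproteins and the matrix protein SPARC, followed at 44.7 CPM per kb ± 6.07. Lrp1, a large endocytic receptor that takes up apolipoprotein E particles, stood at 25.8 CPM per kb ± 3.05. These 3 genes did not overlap in range with each other or with Scarb1, the high-density lipoprotein receptor gene, at 5.11 CPM per kb ± 1.65.

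Below Scarb1 the order was not resolved beyond the spread between libraries. Cd36, the fatty acid translocase and thrombospondin receptor gene, had 1.80 CPM per kb ± 1.65, and Msr1, the macrophage receptor for acetylated and oxidised lipoproteins, 1.13 CPM per kb ± 0.842. Cd36 lay above Msr1 in 4 of 6 libraries, and Scarb1 above Cd36 in 5 of 6. Colec12, a scavenger receptor with a C-type lectin domain, was lowest at 0.105 CPM per kb ± 0.121. The exon lengths ranged from 1.257 kb for Cd68 to 17.717 kb for Lrp1, and reads that gather towards the 3′ end of transcripts would make long genes look lower on this scale. Of the 7, only Stab1 shared exonic bases with another gene in that annotation (1.09% with Nt5dc2, which lies on the other strand).

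**Figure D1:**
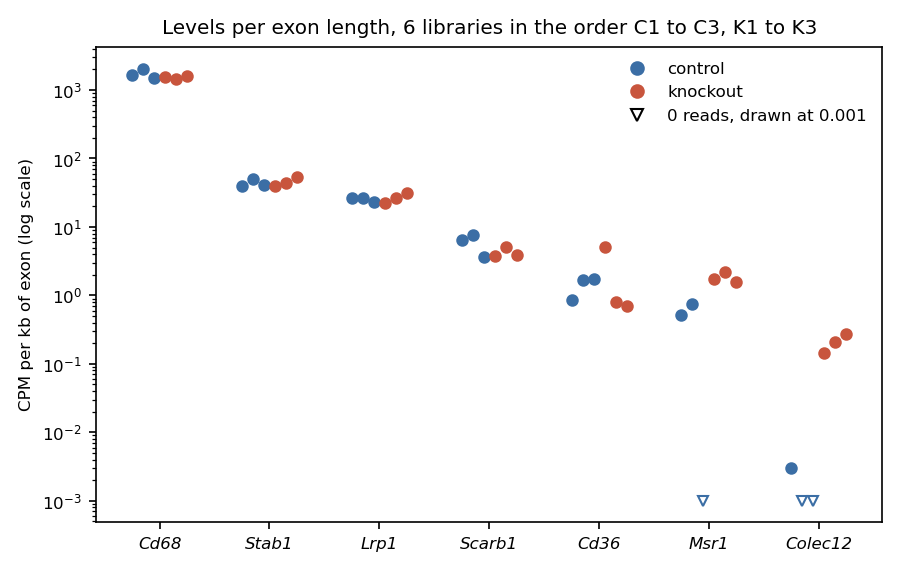
Level of each receptor gene in CPM per kb of exon (log axis) in the 6 libraries, blue for control and red for knockout. Cd68 lies above all the others, Stab1 above Lrp1 in every library, and Colec12 is at or near 0 in the controls, where open triangles mark libraries with 0 reads.

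The comparison of knockouts with controls asked whether the receptor genes differed between the genotypes. No receptor gene passed the threshold: edgeR called 0 of 7 at an adjusted p under 0.05, where 0.0443% of the 15787 genes tested were called. DESeq2 called 1 of the 7, Colec12, against 0.526% of all genes, and limma voom called 0 against 0.0950%. At an unadjusted p under 0.05 edgeR had 2 of 7, Msr1 and Colec12, both higher, against 2.34% of all genes on the higher side and 1.98% on the lower. The same 2 genes were those whose libraries did not overlap between the groups, against 6.59% of all genes with every knockout above every control and 4.47% with every knockout below. Colec12 passed the low-count filter only through the knockouts, so its part in these counts and its DESeq2 call carry no weight of their own. Without it the unadjusted and non-overlap counts hold Msr1 alone, and the DESeq2 count is 0. The median log2 fold change, knockout over control, was 0.086 over the 7 genes and 0.021 over all genes tested, with 5 of 7 genes above 0 against 52.5% of all genes.

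**Figure D2:**
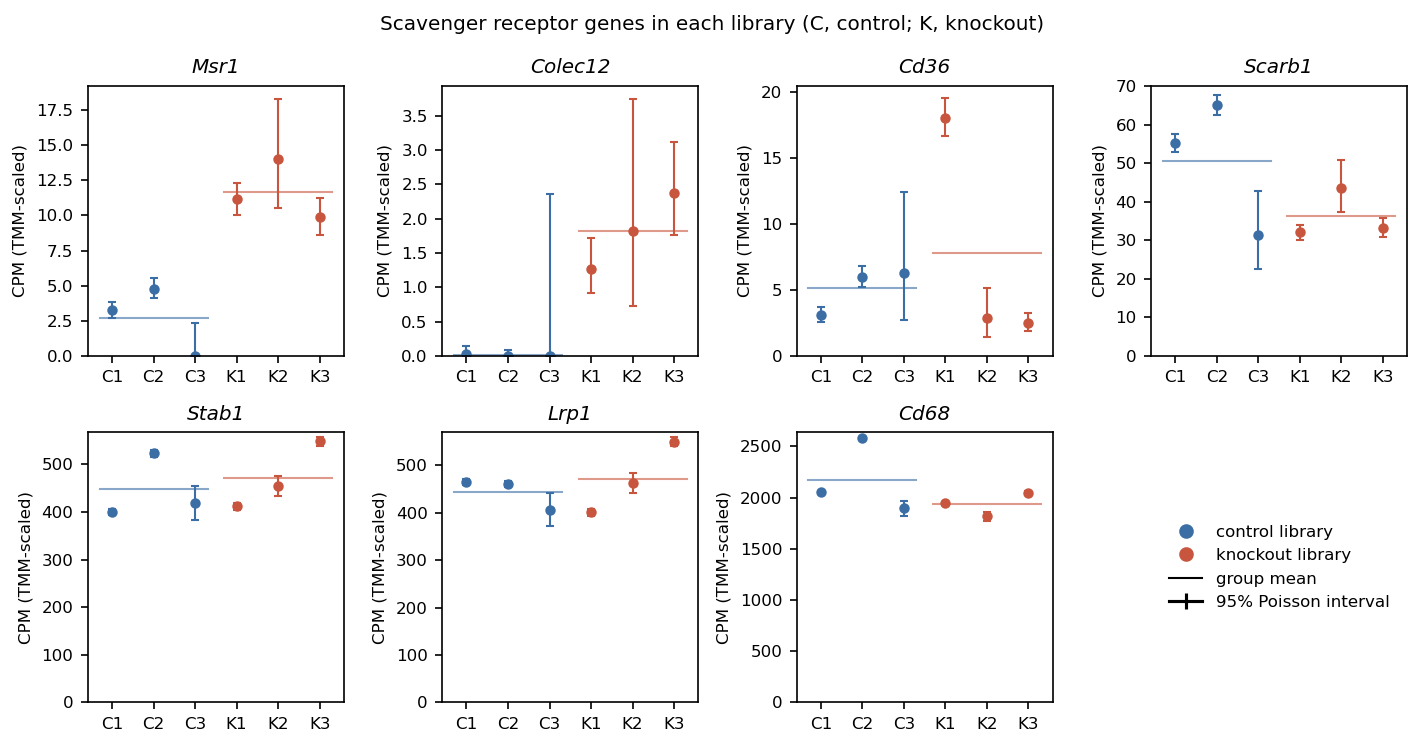
TMM-scaled CPM of the 7 receptor genes in controls 1 to 3 (C1 to C3, blue) and knockouts 1 to 3 (K1 to K3, red), with exact 95% Poisson intervals (for 0 reads, a bar up to the floor of 3 reads), which cover counting error only, and lines at the group means. Msr1 and Colec12 lie higher in all 3 knockouts, Cd36 is high in K1 alone, and Lrp1, Stab1 and Cd68 overlap between the groups.

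Msr1 (ENSMUSG00000025044), the class A receptor best known for making foam cells of macrophages, was low in all libraries. Its CPM values were 3.23, 4.79 and 0 in control mice and 11.2, 14.0 and 9.86 in knockout mice. All 3 knockouts lay above all 3 controls, and the 0 reads of control 3 allowed a level of up to 2.36 CPM, which is below each knockout value. The means were 2.67 CPM ± 2.44 (SD, n = 3) and 11.7 CPM ± 2.13. EdgeR put the log2 fold change at 1.85 with an SE of 0.57, a 95% interval of 0.63 to 3.06 and an adjusted p of 0.686. Across the alternatives run, its log2 fold change stayed between 1.38 and 2.38. Its lowest adjusted p was 0.0689, with DESeq2, so it was not called in any of them. In bulk samples a difference in the number of cells of a type cannot be told apart from a difference in RNA per cell.

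Colec12 (ENSMUSG00000036103) was nearly undetected in the controls and present at a low level in each knockout. It had 1, 0 and 0 reads in controls 1 to 3 and 43, 7 and 51 reads in knockouts 1 to 3, or 1.27, 1.82 and 2.37 CPM in the latter. Controls 1 and 2 together had 1 read although they were the deepest libraries, whereas the 0 reads of control 3 allowed up to 2.36 CPM, which is above knockouts 1 and 2 and about level with knockout 3.

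The fitted log2 fold change of Colec12 was 6.62 (SE 1.33, edgeR adjusted p = 0.146), a value that depends on how a near-zero group is modelled. Limma voom gave 5.07 with an adjusted p of 0.145. The adjusted p was 0.00693 with DESeq2 and 0.0184 in edgeR with no filter on low counts. Over all the alternatives run it went from 0.00693 to 0.979. With 1 library left out, the log2 fold change ran from 5.87 without control 2 (adjusted p = 0.709) to 8.15 without control 1 (adjusted p = 0.979), and it was 6.66 without control 3 (adjusted p = 0.0546).

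Cd36 (ENSMUSG00000002944) was uneven among the knockouts rather than between the genotypes. Control mice had 3.10, 5.97 and 6.29 CPM, and knockout mice 18.1, 2.86 and 2.51 CPM. Knockout 1 stood above every other library, and the other 2 knockouts lay below every control. The group means were 5.12 CPM ± 1.75 (SD, n = 3) and 7.81 CPM ± 8.88, and the edgeR log2 fold change of 0.70 had an SE of 0.75 (adjusted p = 0.999). Without knockout 1 the log2 fold change was -0.93 (SE 0.67), so 1 library decided its sign. In control 3 and knockout 2 the values rested on 8 and 11 reads.

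Scarb1 (ENSMUSG00000037936), which moves cholesteryl esters between lipoproteins and cells, stood at 55.2, 65.1 and 31.4 CPM in control mice and at 32.0, 43.6 and 33.2 CPM in knockout mice. Both deep controls lay above all knockouts, while control 3, with 40 reads and a counting interval of 22.5 to 42.8 CPM, lay below them. Its edgeR log2 fold change was -0.51, with an SE of 0.25 and a 95% interval of -1.05 to 0.020 (adjusted p = 0.999). With both shallow libraries left out it was -0.89 (SE 0.18, adjusted p = 0.128), with 2 libraries a group. With 1 library left out it ran from -0.75 without control 3 (adjusted p = 0.21) to -0.29 without control 2 (SE 0.27). Scarb1 was not called in any alternative run.

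The abundant receptors differed by less than the spread between replicates. Lrp1 (ENSMUSG00000040249) measured 465, 461 and 405 CPM in control mice against 401, 462 and 550.0 CPM in knockout mice, and the groups overlapped. Its log2 fold change was 0.086 (SE 0.15, edgeR adjusted p = 0.999), and the 95% interval of the fold ran from 0.849 to 1.33. Stab1 (ENSMUSG00000042286) measured 401, 524 and 418 CPM in control mice against 412, 455 and 548 CPM in knockout mice. It too overlapped, with a log2 fold change of 0.075 (SE 0.16, adjusted p = 0.999) and an interval of the fold from 0.834 to 1.33. Without knockout 3, the highest library for both genes, the log2 fold changes were -0.065 for Lrp1 and -0.071 for Stab1.

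Cd68 (ENSMUSG00000018774), widely used as a marker of phagocytic activity, reached 2054, 2579 and 1895 CPM in control mice, compared with 1945, 1819 and 2042 CPM in knockout mice. Control 2 was the highest library and the remaining 5 lay close together. The means were 2176 CPM ± 358 (SD, n = 3) and 1935 CPM ± 112, and edgeR gave a log2 fold change of -0.17 with an SE of 0.13 (adjusted p = 0.999). The 95% interval of the fold ran from 0.728 to 1.09. Cd68 alone supplied 64.0% to 70.9% of the summed CPM of the 7 genes in each library, so the sum, 2756 to 3639 CPM, mostly restates Cd68.

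**Figure D3:**
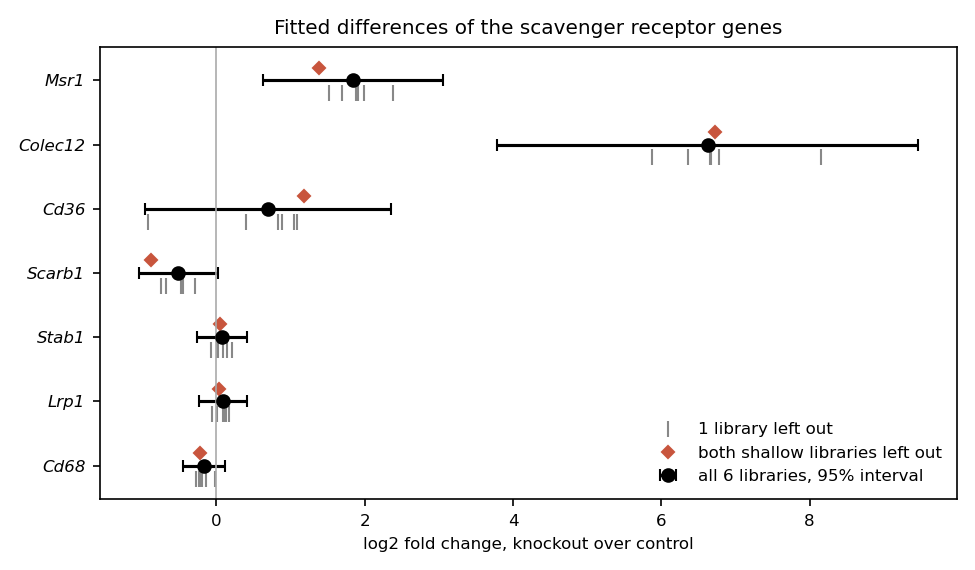
Log2 fold change, knockout over control, of each receptor gene from edgeR (black, all 6 libraries, with the 95% interval), with each library left out (grey ticks) and with both shallow libraries left out (red diamonds). Lrp1, Stab1 and Cd68 lie close to 0, Scarb1 lies below 0 in every fit shown, and the Cd36 ticks fall on both sides of 0.

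Markers of other myeloid cells were measured beside the 3 low receptor genes, since border macrophages and monocytes also make scavenger receptors. The 10 border macrophage markers, among them Mrc1, Pf4 and Cd163, summed to 15.9, 41.8 and 91.9 CPM in control mice and to 258, 171 and 65.7 CPM in knockout mice. Each was detected, but not in every library: Pf4 had 0 reads in control 3 and Cd163 had 1 read in control 1. Mrc1 made up 58.1 CPM of the control 3 sum, from 74 reads, so the rank of control 3 for these markers is uncertain. In the same order the 7 monocyte markers summed to 9.91, 34.2 and 47.1 CPM and 144, 62.6 and 21.4 CPM, and the 5 neutrophil markers to 41.9, 316 and 372 CPM and 1719, 559 and 124 CPM. Of the genes tested, 10 of 10 border macrophage, 5 of 5 monocyte and 5 of 5 neutrophil markers had a log2 fold change above 0, and edgeR called 0 of them. Of the 10 microglia markers 8 were below 0, 3 of them at an unadjusted p under 0.05 against 1.98% of all genes, and 3 had every knockout below every control against 4.47%, with 0 called. All 3 sums of other myeloid markers were highest in knockout 1, the library with the high Cd36 value. Colec12 ran the other way between knockouts 1 and 3, at 1.27 and 2.37 CPM. The rank of knockout 2 is uncertain, since its 7 Colec12 reads had a counting interval of 0.731 to 3.75 CPM. Msr1 was lowest in knockout 3, as the marker sums were, and highest in knockout 2. The order of its knockouts is uncertain, since their counting intervals overlapped, at 10.1 to 12.3, 10.5 to 18.3 and 8.57 to 11.3 CPM. The part of the other myeloid cells in the receptor values was not tested.

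**Figure D4:**
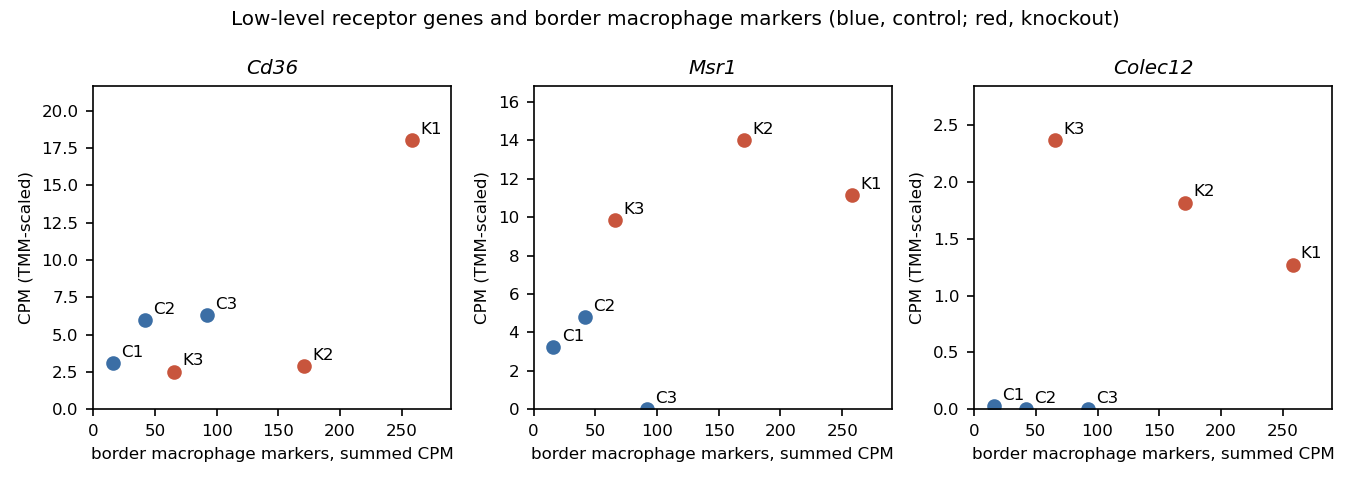
CPM of Cd36, Msr1 and Colec12 against the summed CPM of 10 border macrophage markers in the 6 libraries (C1 to C3 control, blue; K1 to K3 knockout, red). K1 is highest for the markers and for Cd36, whereas Colec12 is higher in K3, whose marker sum is the lowest of the knockouts, than in K1. The Colec12 value of K2 rests on 7 reads.

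Cd36 and Colec12 are also known from blood vessels and connective tissue. The 7 endothelial markers summed to 62.5, 38.2 and 96.7 CPM in control mice and 43.8, 57.4 and 42.5 CPM in knockout mice, with Slco1a4 at 0 reads in every library. Of 7 mural cell and fibroblast markers 6 stayed under 1 CPM in every library, with Rgs5 at 0 reads. The sum of all 7 was 0.158, 0.484 and 1.57 CPM in control mice and 2.93, 1.56 and 1.95 CPM in knockout mice. In control 3 it lay below the floor of 2.36 CPM. The exception was Pdgfrb, the platelet-derived growth factor receptor beta gene, picked out after its value was seen. Pdgfrb had 2, 2 and 0 reads in controls 1 to 3 and 79, 6 and 40 reads in knockouts 1 to 3. Its log2 fold change was 5.10 with an SE of 1.08 (edgeR adjusted p = 0.166). Like Colec12, Pdgfrb passed the low-count filter only through the knockouts, so this value carries no weight of its own.

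The genes whose log2 CPM followed each receptor most closely over the 6 libraries were picked by Pearson r among 5664 genes with a mean of at least 20 CPM. For Colec12 they were Pgd (r = 0.99) and Esr1 (r = 0.987). Esr1 encodes an estrogen receptor, and CreERT2 carries an estrogen receptor domain; whether reads of the fusion were counted in Esr1 was not tested. Msr1 was followed by Ndufa6 and Gstm1 (r = 0.997 for each), Cd36 by Galnt7 (0.99) and Mtrr (0.965), and Scarb1 by Spsb1 (0.996) and Cmtm7 (0.994). For Lrp1 they were Sh2d3c (0.989) and Dst (0.978), for Stab1 Brwd1 (0.967) and Dctn2 (0.952), and for Cd68 Ly6e (0.99) and Hps5 (0.987). Over 6 points that share depth, the best of so many genes is high for any profile, so these are descriptions only. Among the receptors themselves Lrp1 and Stab1 had r = 0.745, and Cd36 and Lrp1 had r = -0.788.

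The wider family and the genes that work with these receptors were read from the same fit in 7 lists, of which 82 genes were tested. EdgeR called 0 of the 82 where 0.0443% of all genes were called, DESeq2 called 3 (Calr, Dab2 and Lipa) where 0.526% were, and limma voom called 1 (Calr) where 0.0950% were. The unadjusted counts of each list stand beside 2.34% of all genes on the higher side and 1.98% on the lower. Of 16 other scavenger receptor genes 11 were tested, with 6 above 0 and 5 below, a median log2 fold change of 0.60, and 2 genes on the higher side and 0 on the lower with an unadjusted p under 0.05. Cd44, the hyaluronan receptor gene, was at 5.47, 8.87 and 10.2 CPM in control mice and 20.2, 18.4 and 11.1 CPM in knockout mice, with a log2 fold change of 1.07, an SE of 0.37 and an adjusted p of 0.874 in edgeR. Clec7a, the beta-glucan receptor dectin-1 gene, ranged from 47.0 to 84.9 CPM in control mice and from 71.5 to 113 CPM in knockout mice (0.60, SE 0.24, adjusted p = 0.999). Scarf2 had a log2 fold change of -1.38 (SE 0.80, adjusted p = 0.999) at 3.23 CPM or less. The Cd44 groups did not overlap, against 6.59% of all genes with knockouts higher, whereas those of Clec7a and Scarf2 did. Cd44 parted the groups only by 11.1 CPM in knockout 3 against 10.2 CPM in control 3, which rested on 13 reads. This list holds Mrc1 and Cd163, which are also border macrophage markers. Cd163 had 0.0263, 1.75 and 3.14 CPM in control mice and 17.1, 7.27 and 2.14 CPM in knockout mice. Its groups overlapped only through control 3, whose value rested on 4 reads.

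The relatives of Lrp1 were read next. Of 13 listed genes 8 were tested, with 3 above 0 and 5 below, a median of -0.11 and 0 at an unadjusted p under 0.05 in either direction. The sorting receptor gene Sorl1 had 45.2 CPM ± 6.44 (SD, n = 3) and 56.7 CPM ± 9.20 (log2 fold change 0.34, SE 0.20). Lrp10 was at -0.27 (SE 0.27), and both genes had an edgeR adjusted p of 0.999.

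Of 15 ligand genes 13 were tested, with 5 above 0, 8 below and a median log2 fold change of -0.15. With an unadjusted p under 0.05 there was 1 gene on the lower side and 0 on the higher. That gene was Calr, whose chaperone product also acts with Lrp1 at the cell surface, at 585 CPM ± 63.1 (SD, n = 3) and 321 CPM ± 38.3 (a log2 fold change of -0.87, with SE 0.15 and an edgeR adjusted p of 0.0623). The lipoprotein gene Apoe had 326, 815 and 438 CPM and 1695, 1277 and 701 CPM (1.22, SE 0.52, adjusted p = 0.999), and its libraries overlapped. The summed border macrophage markers ranked the same way among the knockouts and between controls 1 and 2. Control 3 broke the order among the controls, but its rank for these markers is uncertain. The part of the markers in the Apoe values was not tested. Sparc, the matrix ligand of Stab1, had 6022 CPM ± 682 and 5210.0 CPM ± 213 (-0.21, SE 0.11).

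Chaperones, adaptors and sheddases of the receptors numbered 16, of which 15 were tested, with 4 above 0, 11 below and a median log2 fold change of -0.037. With an unadjusted p under 0.05 there was 1 gene on the higher side and 0 on the lower. It was Dab2, an endocytic adaptor that binds the tails of Lrp1 and its relatives, with 33.3, 26.0 and 24.4 CPM in control mice and 102, 64.7 and 55.4 CPM in knockout mice. The Dab2 groups did not overlap (log2 fold change 1.40, SE 0.24, edgeR adjusted p = 0.0635). The summed border macrophage markers ranked the same way as Dab2 among the knockouts and the opposite way between controls 1 and 2. In control 3 the Dab2 value rested on 31 reads, and the rank of the markers is uncertain. The part of the markers in the Dab2 values was not tested. Lrpap1, the folding chaperone of Lrp1, was at -0.24 (SE 0.15), and Chid1, a chitinase-like partner of Stab1, at -0.46 (SE 0.22), each with an adjusted p of 0.999.

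Of 9 signalling partners, Toll-like receptors and kinases that act with Cd36 and related receptors, 8 were tested, with 4 on each side of 0, a median log2 fold change of -0.016 and 0 at an unadjusted p under 0.05. Tlr2 had 195 CPM ± 14.6 (SD, n = 3) and 239 CPM ± 30.5 (0.29, SE 0.15). Every Tlr2 knockout lay above every control, against 6.59% of all genes. The groups parted only by 210 CPM in knockout 3 against 204 CPM in control 3, which rested on 260 reads. Syk was at -0.23 (SE 0.18) and Tlr4 at -0.16 (SE 0.19). Transcription factors that control these genes were tested in 16 of 17 cases, with 10 above 0, 6 below and a median of 0.039. Maf, a macrophage factor, was the 1 regulator at an unadjusted p under 0.05, with 422 CPM ± 47.7 and 538 CPM ± 48.4 (0.35, SE 0.14). Jun, a subunit of AP-1, was at -0.57 (SE 0.27) and Nr1h2, the liver X receptor beta gene, at 0.30 (SE 0.25). The edgeR adjusted p was 0.999 for each of these 6 genes. Pparg, which drives Cd36 in macrophages, did not pass the filter, at no more than 0.533 CPM in any library.

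Genes that handle the lipid cargo after uptake numbered 11, all tested, with 6 above 0, 5 below and a median log2 fold change of 0.055. With an unadjusted p under 0.05 there was 1 gene on each side. Lipa, the lysosomal acid lipase that frees cholesterol from lipoproteins taken up, measured 379, 359.9 and 298 CPM in control mice and 557, 544 and 484 CPM in knockout mice. Its groups did not overlap, and the log2 fold change was 0.61 (SE 0.15, edgeR adjusted p = 0.261; 0.00638 with DESeq2). Acsl1, a fatty acid activating enzyme gene, was at -0.49 (SE 0.21) and Npc1, the lysosomal cholesterol exporter gene, at -0.31 (SE 0.16), each with an edgeR adjusted p of 0.999. The groups did not overlap in 5 of the 11 genes, 4 higher in the knockouts and 1 lower, against 6.59% and 4.47% of all genes. Each of the other lists held 0 or 1 such gene on either side, so this list was singled out after its count was seen. Fabp5, 1 of the 4, parted the groups only by 4.51 CPM in knockout 3 against 4.41 CPM in control 2, with 0 reads in control 3.

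**Figure D5:**
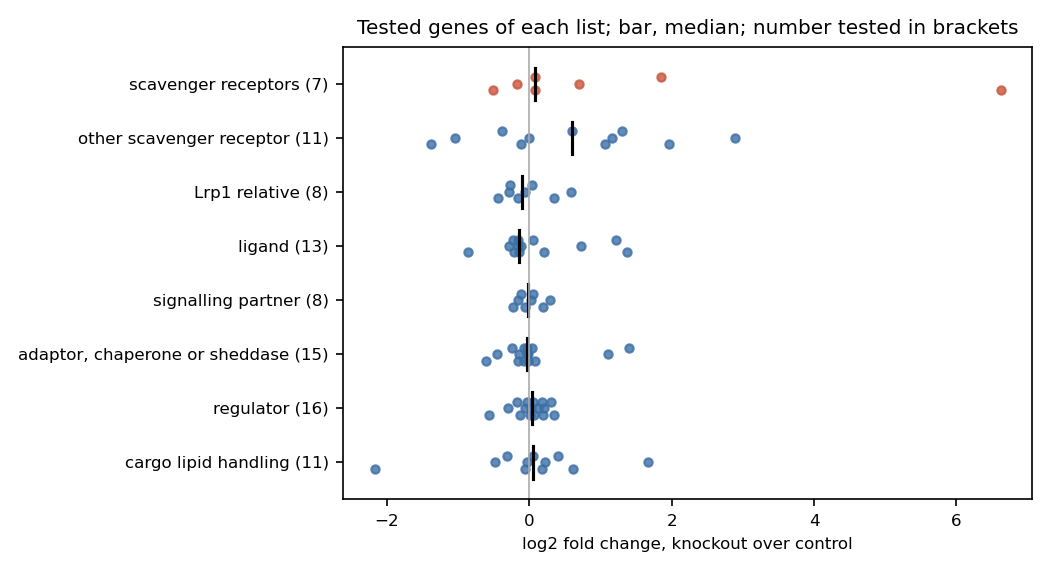
Log2 fold change, knockout over control, of each tested gene in the receptor set (red) and the 7 related lists (blue), with a bar at each median. The medians of the Lrp1 relative, ligand, signalling partner, adaptor, regulator and cargo lists lie between -0.15 and 0.055, and that of the other scavenger receptors at 0.60.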

How the data were processed

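RNA of sorted cortical microglia was sequenced from 3 control and 3 knockout mice, with 1 library a mouse. The authors deposited 1 table of raw whole-number counts per Ensembl gene, per the file headers. STAR and featureCounts are among the tools that the submitters' processing notes list, beside the build GRCm39; whether strand was used in counting is not stated there. Of 55774 rows, 287 repeated an identifier and were left out, and 0 columns belonged to other samples. Without molecular identifiers, intervals and floors cover counting error only.

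Genes were kept by edgeR's default filter, scaled by TMM and tested with a robust quasi-likelihood F-test, group as the only term (edgeR 4.0.16, R 4.3.3), with Benjamini-Hochberg adjustment over 15787 genes and a threshold of 0.05. Standard errors are the coefficient over the square root of F. DESeq2 1.42.0 and limma 3.58.1 voom were among the alternatives. The steps were tested on simulated data. Exon lengths came from GENCODE M21, which holds 99.4% of the identifiers. The receptor genes and lists were chosen with earlier results of these data known. Named are the receptors, Atg7, Cx3cr1, in each list the 3 genes of smallest p (1 of them is not reported here), and for each receptor the 2 genes of highest r; Cd163, Pdgfrb and Pparg were added after their values were seen.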

Additional observations from a re-analysis of the deposited data

How the results depend on the processing

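No receptor gene was called by edgeR, and 1, Colec12, was called with no filter (log2 fold change 6.59) and by DESeq2 (6.03); the other alternatives called 0. Msr1, Scarb1 and Cd68 kept their direction and stayed uncalled in all 17 alternatives. Direction turned for Cd36 without knockout 1 (-0.93) and for Lrp1 and Stab1 without knockout 3 (-0.065 and -0.071); with 1 library left out the ranges were -0.93 to 1.09, -0.065 to 0.17 and -0.071 to 0.21. Stricter filtering gave Colec12 no value, and thinning gave Cd36 and Colec12 none. Over all genes 7 were called, against 102 with no filter, 83 with DESeq2, 15 with voom, 4 with voom and library weights, 2 without the robust option, 39 without both shallow libraries, 12 after thinning, and 2 to 50 with 1 library left out. Of the 82 related genes 0 were called, against 1 with DESeq2 size factors, 2 with library totals, no filter, the stricter filter or thinning, 3 with DESeq2, 1 with voom and 0 to 1 with 1 library left out; the cause was not tested. Deviations of same-numbered mice correlated at 0.301, -0.216 and -0.0585, and those of the shallow control 3 and knockout 2 at 0.287. So few values, from libraries of unlike depth, cannot decide whether the numbers pair the samples. The replicate block gave 25 calls over all genes, 2 among the related genes and 0 among the receptors, with Msr1 at 2.15. Depth limits the low genes in control 3, where Msr1 and Colec12 had 0 reads and Cd36 had 8.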
